A study of Mus musculus with 2 samples.

Results

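The 47 genes described here encode proteins of mitosis, the kinetochore and the spindle. They were taken by name, from their known functions, and each was measured on the arrays, as 47 of the 20651 genes to which a probe could be matched. Of the 47, 45 were well above background on both arrays, by the scanner software's flag. The other two, Cdc25c and Cenpf, were not so on either array.

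By their labels, the arrays compare mouse CD4 T cell cultures of 2 genotypes, both named T helper 9 (TH9) cells, a type of helper T cell named for the cytokine IL-9. One culture came from mice with floxed Sirt1 alleles and a Cre recombinase under the Cd4 promoter (SIRT1flox/flox-CD4-Cre), called knockout in the labels. The other came from wild-type mice. The sources used here give neither age nor strain. The Cd4 promoter is active in developing thymocytes, so such a Cre also acts in the CD8 lineage, and cells other than T cells keep SIRT1. Both cultures began from sorted naive CD4 T cells of spleen and lymph nodes, stimulated through CD3 (2 µg/ml antibody) and CD28 (2 µg/ml) with 100 U/ml human IL-2, and the TH9 condition added 2 ng/ml TGFβ1 and 10 ng/ml IL-4. Culture lasted 5 days by the description of each array and 5 to 6 days by the protocol. SIRT1 is an NAD-dependent deacetylase, and the series title concerns its bearing on IL-9-producing cells. Each genotype had 1 array (1-colour, Cy3), so the comparison had no replicates and no test between the genotypes was possible.

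A dividing cell switches on its mitosis genes together. Their transcripts are low in resting cells and peak in G2 and M phase, when cyclin B with CDK1 starts mitosis, the spindle captures chromosomes at their kinetochores, and a checkpoint holds back anaphase until every chromosome is attached. Naive T cells are quiescent and enter repeated divisions once stimulated through the T cell receptor and CD28, so levels of these genes are widely used as a sign of how much a population is cycling. In bulk RNA, fewer dividing cells and less RNA per dividing cell cannot be told apart.

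The targeted gene and the cell identity markers set limits on every value below. Sirt1 had a signal of 2920 on the array labelled knockout and 3240 on the wild-type array, a log2 difference of -0.08 with a scanner error of 0.20 (0.10 with each array centred on its median). The sources used here do not say where its probe lies relative to the floxed exons. The value therefore does not check the label, and every direction below rests on the label alone. Il9, the defining gene of the labelled cell type, gave 7.36 on the array labelled knockout and 5.48 on the wild-type array, neither of them well above background. All 12 B cell markers and all 10 CD8 and NK cell markers examined were well above background on both arrays. So were all 11 matched T cell markers, 4 of 6 TH9 markers and 12958 of all 20651 genes. That flag therefore does not tell these cell types apart. With Il9 not well above background, the values do not bear out the labelled cell type, and TH9 is used here as the label's name only. The share of gene spots well above background was 65.3% for the array labelled knockout and 57.1% for the wild-type array. The lowest signal with that flag was 8.96 on the array labelled knockout and 24.6 on the wild-type array. A gene below 24.6 on the array labelled knockout was therefore counted only if its wild-type signal was higher. Among the genes named below, the filter thus set the direction of Espl1, Cenpm, Cenpn, Orc1, Alas2, Slc4a1 and the second Tpx2 probe. No gene spot was saturated. The values compared are log2 processed signals, each minus its array's 75th percentile, and every difference is knockout minus wild-type. A ± after a difference is the scanner software's own error estimate, which covers the spots of these arrays and not the spread between cultures.

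On the array labelled knockout, mitosis genes had lower signals almost throughout. Among the 45 members measured on both arrays, 43 were lower and 2 higher, where 49.6% of all 12958 genes measured on both arrays were lower. The median difference of the members was -0.57 on the log2 scale, a 1.48-fold lower signal, and over all genes the median was 0.00. By size, 21 members were at least 1.5-fold lower, where 12% of all genes were. At least 2-fold lower were 5 members, where 3.63% of all genes were. Among the 5, Espl1 was dim enough on the array labelled knockout to pass the filter only with a higher wild-type signal. No member was 3-fold lower, a size that 0.864% of all genes reached. No member was at least 2-fold higher, a size that 3.95% of all genes reached. For 40 members the signal was lower by more than the scanner error of the difference, for 2 it was higher by more than that, and 3 lay inside it. The 43 and the 40 include Mad2l1, whose 3 probes disagreed in sign. The quartiles of the members lay at -0.73 and -0.45, so the pattern was one of many moderate differences rather than a few large ones. The members were listed by function, but the same arrays had already been seen to give lower values for proliferation genes when the list was drawn up, so these counts are a description of the group.

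**Figure D1:**
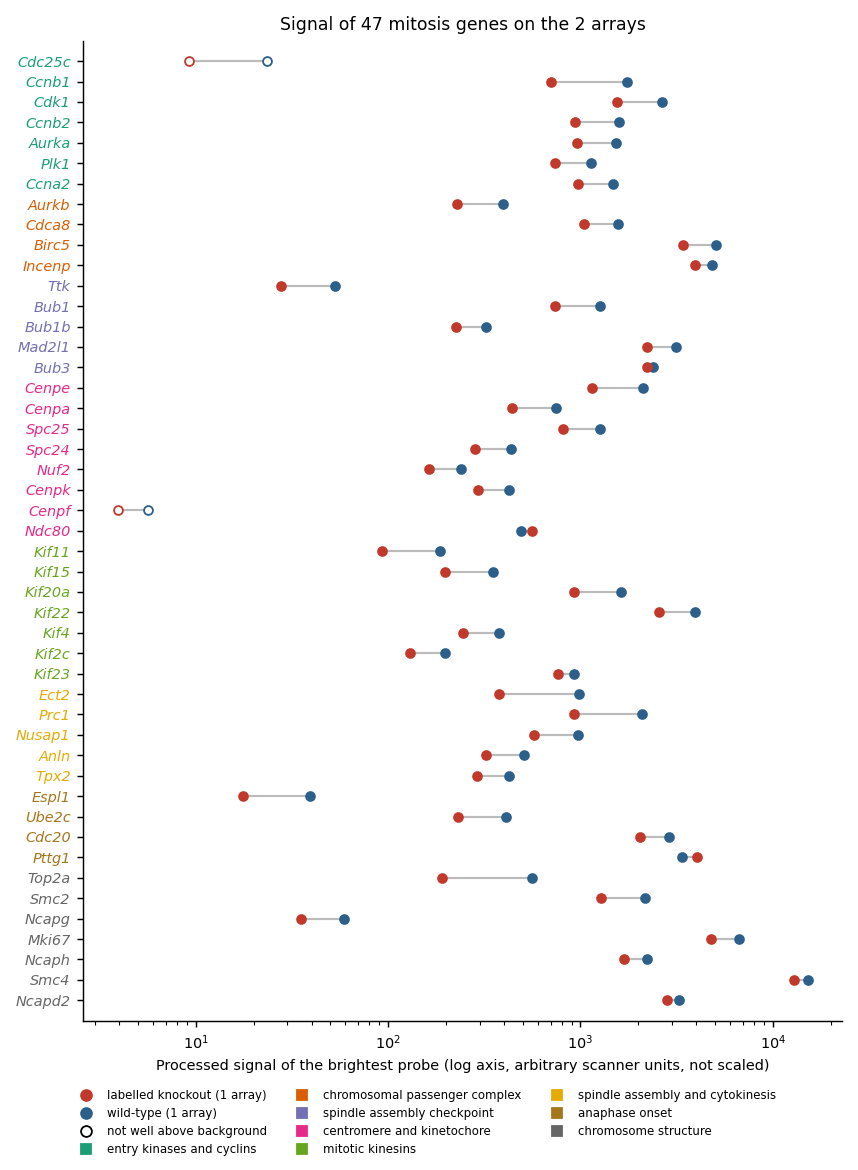
Processed signal of the brightest probe of each of the 47 mitosis genes (log axis, scanner units before scaling), on the array labelled knockout (red) and the wild-type array (blue), 1 array each, with gene names coloured by role and open circles for the 2 genes not well above background on either array. The red point lies left of the blue one for every gene except Ndc80 and Pttg1, and levels of different genes are not comparable since each comes from its own probe.

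Repeat spots and repeat probes gave 2 further views of the error. Bub1, a checkpoint kinase, was the member spotted 10 times on each array. Its spots varied with an SD of 0.035 on the array labelled knockout and 0.031 on the wild-type array (log2, n = 10 spots each), and its difference of -0.71 had a standard error of 0.015 over spots. Over the 248 probes with at least 8 usable spots per array, all well above background, the SD of a difference between single spots had a median of 0.049, against a median scanner error of 0.20 for the same probes. Spot-to-spot noise on these arrays was thus smaller than the scanner error printed here.

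Several probes read each of 13 members. The 47 genes had 64 probes in all, and of the 61 well above background on both arrays 56 were lower, 5 higher and 6 at least 2-fold lower. For 12 genes, several probes were well above background on both arrays. In 9 of these genes every such probe was lower on the array labelled knockout, and Pttg1 was higher by both of its probes. Probes of Cdk1 and Mad2l1 disagreed in sign. The difference between the lowest and the highest probe of a gene had a median of 0.19.

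**Figure D2:**
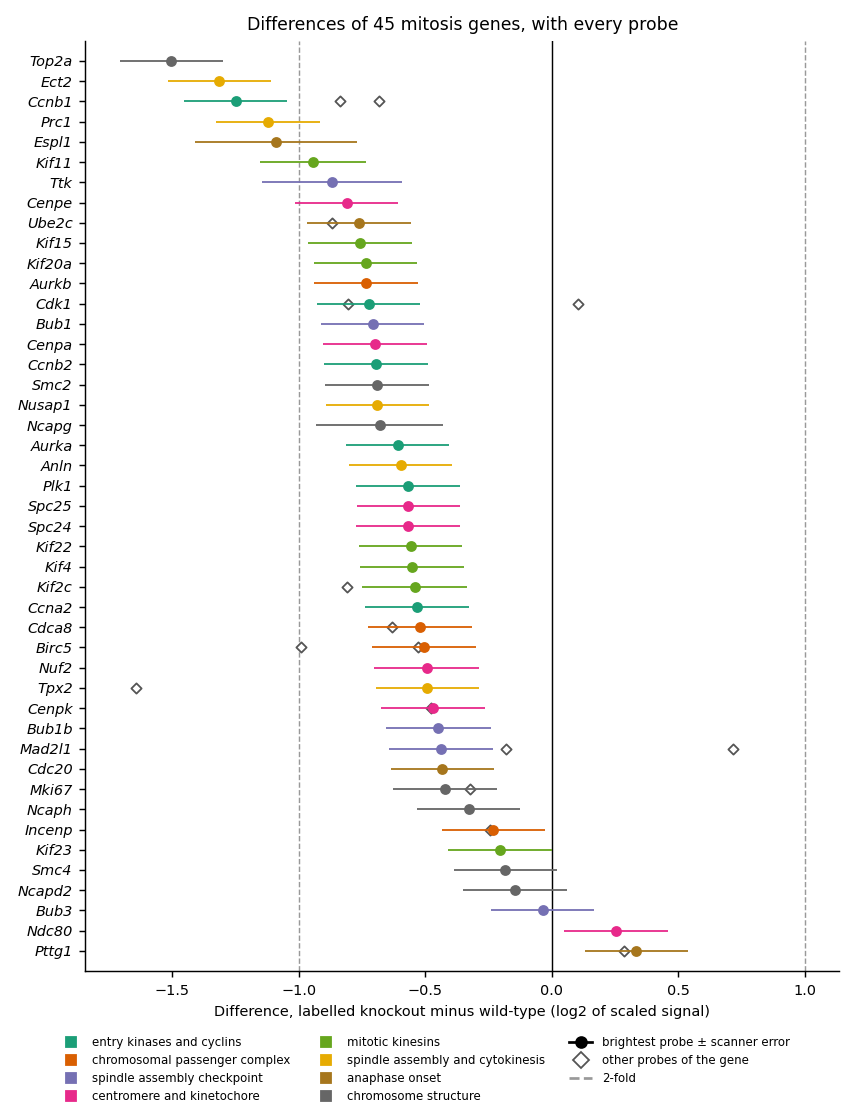
Differences (knockout minus wild-type, log2 of scaled signal) of the 45 mitosis genes measured on both arrays, ordered from lowest to highest, as circles with the scanner error for the brightest probe and open diamonds for other probes of the same gene. Top2a is lowest at -1.50, only Ndc80 and Pttg1 lie above 0 by their brightest probe, and 1 probe each of Cdk1 and Mad2l1 lies on the other side of 0 from the rest.

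The promoters show what many of these genes have in common beyond function. The cell cycle genes homology region (CHR) is a short element through which the MuvB complexes act: DREAM, which holds these genes off in resting cells, and the B-MYB and FOXM1 complexes, which turn them on in G2. A CCAAT box, bound by the factor NF-Y, often lies just upstream of it. RefSeq promoter windows of 300 bases (GRCm38.p6, 250 before to 50 after the annotated start) matched 39 of the 47 members. Not matched were Aurkb, Ccna2, Cdc25c, Incenp, Kif20a, Smc4, Spc24 and Tpx2. The windows of the 5 members at least 2-fold lower and of the 2 members that were higher are printed below, 5′ to 3′ along the gene's strand, so that the elements can be compared between them. Capitals mark TTTGAA or its reverse complement TTCAAA (the CHR letters searched), and CCAAT or its reverse complement ATTGG.
Top2a, chr11:99024140-99024439, minus strand: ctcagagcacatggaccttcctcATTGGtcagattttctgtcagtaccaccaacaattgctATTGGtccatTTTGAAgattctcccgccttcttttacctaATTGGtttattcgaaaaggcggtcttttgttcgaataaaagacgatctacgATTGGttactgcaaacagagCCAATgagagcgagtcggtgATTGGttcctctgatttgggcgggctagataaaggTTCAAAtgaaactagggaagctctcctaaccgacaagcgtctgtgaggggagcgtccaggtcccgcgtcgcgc
Ect2, chr3:27153829-27154128, minus strand: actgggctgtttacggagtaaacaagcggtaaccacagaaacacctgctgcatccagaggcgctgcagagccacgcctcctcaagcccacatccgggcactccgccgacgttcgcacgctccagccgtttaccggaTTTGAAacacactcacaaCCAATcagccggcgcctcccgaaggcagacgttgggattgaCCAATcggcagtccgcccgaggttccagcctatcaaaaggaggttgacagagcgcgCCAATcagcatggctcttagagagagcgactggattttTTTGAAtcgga
Ccnb1, chr13:100786437-100786736, minus strand: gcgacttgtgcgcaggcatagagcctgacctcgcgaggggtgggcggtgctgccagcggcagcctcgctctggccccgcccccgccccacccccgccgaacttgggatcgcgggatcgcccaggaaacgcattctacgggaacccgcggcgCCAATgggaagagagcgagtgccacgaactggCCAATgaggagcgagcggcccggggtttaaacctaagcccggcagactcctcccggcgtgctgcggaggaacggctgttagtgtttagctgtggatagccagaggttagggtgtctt
Prc1, chr7:80294201-80294500, plus strand: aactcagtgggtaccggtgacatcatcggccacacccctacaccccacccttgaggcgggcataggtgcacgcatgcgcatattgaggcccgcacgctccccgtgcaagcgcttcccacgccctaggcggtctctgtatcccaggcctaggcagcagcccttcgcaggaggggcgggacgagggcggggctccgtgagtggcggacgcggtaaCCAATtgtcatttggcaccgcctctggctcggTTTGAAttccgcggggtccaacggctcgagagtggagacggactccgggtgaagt
Espl1, chr15:102296043-102296342, plus strand: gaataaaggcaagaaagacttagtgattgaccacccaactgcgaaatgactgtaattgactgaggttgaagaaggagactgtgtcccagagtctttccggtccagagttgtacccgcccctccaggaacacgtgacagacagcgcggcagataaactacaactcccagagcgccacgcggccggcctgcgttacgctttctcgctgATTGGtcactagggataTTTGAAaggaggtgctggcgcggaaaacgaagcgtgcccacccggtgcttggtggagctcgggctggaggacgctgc
Ndc80, chr17:71526808-71527107, minus strand: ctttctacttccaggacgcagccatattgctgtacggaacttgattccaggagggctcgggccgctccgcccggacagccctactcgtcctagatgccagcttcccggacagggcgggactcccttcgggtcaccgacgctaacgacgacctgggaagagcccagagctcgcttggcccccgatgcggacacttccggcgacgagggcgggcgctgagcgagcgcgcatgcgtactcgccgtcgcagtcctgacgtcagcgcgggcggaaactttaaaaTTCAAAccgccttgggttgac
Pttg1, chr11:43425932-43426231, minus strand: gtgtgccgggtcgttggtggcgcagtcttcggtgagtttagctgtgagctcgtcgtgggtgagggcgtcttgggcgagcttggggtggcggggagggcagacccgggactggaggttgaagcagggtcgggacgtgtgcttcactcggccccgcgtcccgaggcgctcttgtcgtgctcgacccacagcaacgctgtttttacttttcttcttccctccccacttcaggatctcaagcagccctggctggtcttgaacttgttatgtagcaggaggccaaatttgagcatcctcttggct

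Top2a carried 2 CHR matches and 6 CCAAT matches, the CHR nearest to the start beginning 23 bases before it. Prc1 and Espl1 had the compact arrangement, 1 CCAAT match followed by 1 CHR match close to the start, beginning at -37 and -5 in Prc1 and at -44 and -27 in Espl1. Ect2 had 2 CHR matches, at -114 and at 39, and 3 CCAAT matches between them. Ccnb1 had 2 CCAAT matches and no CHR match in this window. Of the genes with higher signal, Ndc80 had 1 CHR match and no CCAAT match, and Pttg1 had neither. A match is a run of letters and not a bound site, and its absence says only that these letters are not in this window.

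Across the 39 members, 29 (74.4%) had a CHR match in a window, against 20.2% of all 27025 genes with a promoter window and 15.1% of the 10373 with a window that were measured on both arrays. A CCAAT match was found for 29 members too (74.4%), against 41.1% of all genes and 42.8% of those measured. Both were present in 25 members (64.1%), against 7.97% of all genes, and 6 members had neither. The shares were lower in a list of other mitosis genes described below, 61 of which had a window. Of these, 30 (49.2%) had a CHR match, 39 (63.9%) a CCAAT match and 21 (34.4%) both. The E2F letters searched (TTTCCCGC, TTTGGCGC, TTTCGCGC and TTTGCCGC on both strands) were present in 4 members (10.3%) and 2.61% of all genes, and a TATAAA box in 2 members (5.13%) and 15.7% of all genes. Replication and G1 to S phase genes had E2F letters in 13 of 31 (41.9%), a CHR match in 4 of 31 (12.9%) and a CCAAT match in 21 of 31 (67.7%), the last a share near that of the members. Median GC content was 59% over the members' windows and 52.7% over all windows.

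**Figure D3:**
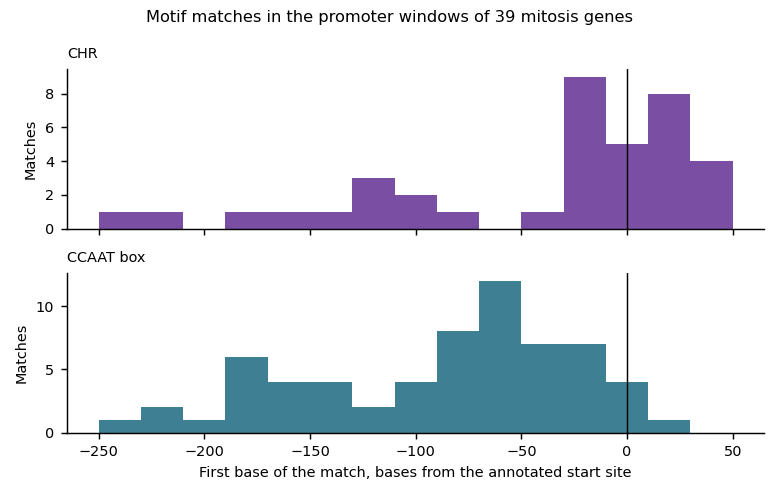
Number of CHR matches (upper panel) and CCAAT matches (lower panel) in the promoter windows of 39 mitosis genes, 1 window per gene, by distance in bases from the annotated start site (line at 0). CHR matches gather around the start, with a median at -17.5, and CCAAT matches before it, with a median at -71.

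The elements were also ordered. In the first listed window of each gene, CHR matches had a median position of -17.5, and 27 of 38 lay from 60 bases before to 50 after the start. CCAAT matches had a median position of 71 bases before the start. In 25 members a CCAAT match lay before a CHR match. The closest such pair of each gene had a median of 31 bases between first letters (quartiles 24 and 47, range 9 to 153). In Top2a, Cdk1, Kif22 and Mki67 that pair did not hold the CHR match nearest the start. The spacing in other genes is not given here, so this order is a description of the members only. Medians were slightly lower in members with the elements than in those without, with no test of the difference. Of the members measured on both arrays, the 28 with a CHR match had a median difference of -0.60 and the 10 without one had -0.50. For the CCAAT box the medians were -0.68 in 28 members with it and -0.50 in 10 without. All 24 members with both elements were lower by their brightest probe, and so were 12 of the 14 without both. The 24 include Espl1, whose direction the filter set. They also include Bub3 and Ncapd2, which lay inside the scanner error and turned above 0 with median centring. The 12 include Mad2l1, for which no direction is given below.

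Among the kinases and cyclins that start mitosis, every member measured was lower on the array labelled knockout. Ccnb1, which encodes cyclin B1, the activating partner of CDK1, gave 704 on the array labelled knockout and 1750 on the wild-type array, a difference of -1.25 ± 0.20 and the largest of this group. Its 2 dimmer probes gave -0.84 and -0.68, so the size depended on the probe and the direction did not. Ccnb2, the second B-type cyclin, gave 940 on the array labelled knockout and 1590 on the wild-type array (-0.69 ± 0.20). Ccna2, cyclin A2, which works in both S phase and G2, gave 972 on the array labelled knockout and 1470 on the wild-type array (-0.53 ± 0.20). The cyclins thus differed in the same direction, by 1.45-fold to 2.38-fold.

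Cdk1, the kinase that B-type cyclins activate, gave 1540 on the array labelled knockout and 2660 on the wild-type array (-0.72 ± 0.20). A second probe gave 580 and 1060 on the same arrays (-0.80), while the dimmest probe gave 62 and 60.4 (0.10 ± 0.24). That probe lay within its error of 0 and the brighter probes did not. Plk1, the polo kinase of mitotic entry and centrosome maturation, gave 735 on the array labelled knockout and 1140 on the wild-type array (-0.57 ± 0.20). Aurka, the aurora kinase of centrosomes and spindle poles, gave 959 on the array labelled knockout and 1530 on the wild-type array (-0.61 ± 0.20). Cdc25c, the phosphatase that activates CDK1, gave 9.27 on the array labelled knockout and 23.5 on the wild-type array, neither well above background, and no fold is given for it.

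The chromosomal passenger complex corrects faulty attachments of chromosomes to the spindle and later steers cytokinesis. Its 4 genes were all lower on the array labelled knockout, the catalytic subunit most. Aurkb, the aurora B kinase, gave 227 on the array labelled knockout and 395 on the wild-type array (-0.73 ± 0.21). Birc5, survivin, gave 3430 on the array labelled knockout and 5090 on the wild-type array (-0.50 ± 0.20), with other probes at -0.53 and -0.99. Cdca8, borealin, gave 1040 on the array labelled knockout and 1560 on the wild-type array (-0.52 ± 0.20). The scaffold Incenp differed least, with 3950 on the array labelled knockout and 4850 on the wild-type array, -0.23 ± 0.20 by this probe and -0.24 by the other.

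The spindle assembly checkpoint blocks the anaphase-promoting complex until all kinetochores are attached. Of its genes, Ttk, Bub1 and Bub1b were lower on the array labelled knockout. Ttk, which starts checkpoint signalling, was dim, with 27.7 on the array labelled knockout and 52.9 on the wild-type array (-0.87 ± 0.27). Bub1 gave 739.8 on the array labelled knockout and 1264 on the wild-type array (-0.71 ± 0.20), and Bub1b, the checkpoint protein BUBR1, gave 225 and 321 on the same arrays (-0.45 ± 0.21). Bub3, their shared binding partner, was level, with 2210 on the array labelled knockout and 2370 on the wild-type array (-0.04 ± 0.20).

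Mad2l1, the MAD2 protein that captures CDC20, was the member with the least agreement between probes. The brightest gave 2210 on the array labelled knockout and 3130 on the wild-type array (-0.44 ± 0.20). The dimmest gave 91.9 and 109 on the same arrays (-0.18 ± 0.22). The middle one went the other way, with 518 on the array labelled knockout and 330 on the wild-type array (0.72 ± 0.20). The mean over the 3 probes was 0.03, so no direction is given for this gene.

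Kinetochores are built on centromeres and bind microtubules. Of 7 such genes measured on both arrays, 6 were lower on the array labelled knockout. Cenpe, a kinesin that carries chromosomes to the spindle equator, gave 1150 on the array labelled knockout and 2110 on the wild-type array (-0.81 ± 0.20). Cenpa, the histone H3 variant that marks centromeres, gave 439 on the array labelled knockout and 745 on the wild-type array (-0.70 ± 0.20). Cenpk, of the inner kinetochore, gave 293 and 424 on the same arrays (-0.47 ± 0.20), with its second probe at -0.48.

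The NDC80 complex, the main microtubule anchor of the kinetochore, has 4 subunits, and they did not move alike. Spc24 gave 282 on the array labelled knockout and 437 on the wild-type array (-0.57 ± 0.20), Spc25 813 and 1260 (-0.57 ± 0.20), and Nuf2 163 and 240 (-0.49 ± 0.21), each in the same order of arrays. Ndc80 itself was higher, with 557 on the array labelled knockout and 489 on the wild-type array (0.25 ± 0.20), just past its scanner error and by 1 probe. Cenpf, a large protein of the outer kinetochore, gave 3.94 on the array labelled knockout and 5.68 on the wild-type array, again not well above background.

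All 7 mitotic kinesins were lower on the array labelled knockout. Kif11, the motor that pushes spindle poles apart, differed most, with 92.5 on the array labelled knockout and 186 on the wild-type array (-0.94 ± 0.21). Kif15, which can share that task, gave 198 and 350 on the same arrays (-0.76 ± 0.21). Kif20a and Kif23 both act in the central spindle during cytokinesis, and they differed in size. Kif20a gave 930 on the array labelled knockout and 1620 on the wild-type array (-0.74 ± 0.20), whereas Kif23 gave 765 and 922 (-0.20 ± 0.20). The chromosome-bound kinesins Kif22 (2560 on the array labelled knockout and 3940 on the wild-type array) and Kif4 (246 and 377) had differences of -0.56 and -0.55. Kif2c, which takes microtubules apart at centromeres, gave 130 on the array labelled knockout and 198 on the wild-type array (-0.54 ± 0.21).

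Genes of spindle assembly and cytokinesis held 2 of the largest differences. Ect2, the exchange factor that activates RhoA at the cell equator, gave 379 on the array labelled knockout and 985 on the wild-type array (-1.31 ± 0.20). Prc1, which bundles the microtubules of the central spindle, gave 923 on the array labelled knockout and 2100 on the wild-type array (-1.12 ± 0.20). Both rest on 1 probe. Nusap1, a microtubule-binding protein of the spindle, gave 572 on the array labelled knockout and 965 on the wild-type array (-0.69 ± 0.20), and Anln, anillin of the contractile ring, gave 323 and 511 (-0.60 ± 0.20). Tpx2, which activates aurora A on the spindle, gave 289 on the array labelled knockout and 425 on the wild-type array (-0.49 ± 0.20). Its second probe, at 11.4 and 37.2, gave -1.64 ± 0.38 at signals near the background.

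At anaphase onset the inhibitor and its target lay on opposite sides of 0. Espl1 encodes separase, the protease that cuts cohesin. It was dim, with 17.6 on the array labelled knockout and 39.2 on the wild-type array (-1.09 ± 0.32). At 17.6, it could be counted only with a higher wild-type signal, so the filter fixed its direction. Pttg1 encodes securin, which holds separase inactive, and it was higher, with 4050 on the array labelled knockout and 3360 on the wild-type array (0.33 ± 0.20) and a second probe at 0.29. Cdc20, which activates the anaphase-promoting complex, gave 2040 on the array labelled knockout and 2880 on the wild-type array (-0.43 ± 0.20). Ube2c, the enzyme that brings ubiquitin to that complex, gave 232 on the array labelled knockout and 411 on the wild-type array (-0.76 ± 0.21), with its second probe at -0.87. With a background correction that starts from the median pixel intensity and adds 50 to every signal (normexp), Espl1 was at -0.22.

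Among genes of chromosome structure, Top2a stood far from the condensins. Top2a, the topoisomerase that untangles sister chromatids, gave 190 on the array labelled knockout and 563 on the wild-type array (-1.50 ± 0.20), a 2.83-fold lower signal by 1 probe. Mki67, the Ki-67 antigen of cycling cells, gave 4740 on the array labelled knockout and 6640 on the wild-type array (-0.42 ± 0.20), with its second probe at -0.32. Condensin shapes mitotic chromosomes, and its subunits spread from Smc2 to Ncapd2. Smc2 gave 1280 on the array labelled knockout and 2160 on the wild-type array (-0.69 ± 0.20). Ncapg gave 35.2 and 59 on the same arrays (-0.68 ± 0.25) and Ncaph 1690 and 2220 (-0.33 ± 0.20). Smc4, the partner of Smc2, gave 12800 on the array labelled knockout and 15200 on the wild-type array (-0.18 ± 0.20), and Ncapd2 gave 2800 and 3240 (-0.15 ± 0.20), both inside the scanner error.

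By role, the median difference ran from -0.69 for spindle assembly and cytokinesis and -0.65 for the kinases and cyclins of entry to -0.45 for the checkpoint and -0.42 for chromosome structure. In 6 of 8 roles every member measured was lower by its brightest probe. The exceptions were the kinetochore with Ndc80 and anaphase onset with Pttg1. The 6 include the checkpoint with Mad2l1, for which no direction is given. Dimmer members tended to have the lower differences (Spearman's rho of difference and mean signal 0.45 over 45 members). Over all genes measured on both arrays the same rho was 0.15, and the points share the same 2 arrays. Of the 26 members at or above the 75th percentile of both arrays, 25 were lower, with a median of -0.54. Of all 6221 such genes 43.3% were lower, so the members' direction was not confined to dim probes.

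Other mitosis genes gave a like picture. Of 72 further genes of kinetochores, spindle and mitotic control, 71 matched a probe and 70 were well above background on both arrays. Of these, 65 were lower and 5 higher, with a median of -0.50, and 9 were at least 2-fold lower. Of all genes measured on both arrays, 49.6% were lower and 3.63% at least 2-fold lower, shares that also apply to the lists below. Knl1, the kinetochore scaffold for the checkpoint, gave 32.2 on the array labelled knockout and 97.6 on the wild-type array (-1.53 ± 0.23). Cdca3, a trigger of mitotic entry, was the brightest of the 9, with 2760 on the array labelled knockout and 6060 on the wild-type array (-1.07 ± 0.20). Hmmr, a spindle protein, gave 151 and 351 on the same arrays (-1.15 ± 0.21). The inner kinetochore genes Cenpm (-1.27) and Cenpn (-1.15), Kif18b (-1.12), Pimreg (-1.05), Hjurp (-1.04), the chaperone that loads CENP-A, and Cep55 (-1.01), of the final cut between daughter cells, were the others. Cenpm (13.8 on the array labelled knockout) and Cenpn (14.5) could be counted only with a higher wild-type signal. The same held for a further gene of the 65, with 15.8 on the array labelled knockout and 25.8 on the wild-type array (-0.64 ± 0.39). A second Hjurp probe well above background gave -0.24 ± 0.28, and the mean over its probes was -0.64. With normexp only Cdca3 of these 9 stayed at least 2-fold lower, where 0.826% of all genes were. With centring on the median only Knl1 and Cenpm did, where 2.25% of all genes were.

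The factors that control mitosis genes differed less than the genes themselves. Of 16 regulators, 14 were lower and 2 higher on the array labelled knockout, with a median of -0.20, and 8 lay inside their scanner error. Foxm1, the G2 activator, was level, with 197 on the array labelled knockout and 217 on the wild-type array (-0.07 ± 0.21). Mybl2, which encodes B-MYB, gave 883 on the array labelled knockout and 1210 on the wild-type array (-0.39 ± 0.20). E2f8, a repressor that is itself induced in S phase, had the lowest value, with 567 and 1060 on the same arrays (-0.84 ± 0.20). Nfyb (-0.57), Rbbp4 (-0.46) and E2f4 (-0.41), subunits of NF-Y and DREAM, came next, and among the MuvB genes Lin54 (0.01) and Lin37 (0.13) lay inside the scanner error while Lin52 (-0.31) and Lin9 (-0.24) were lower by more than it. Centred on the median of each array, which moved all genes up by 0.19, the list's median was -0.01.

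The machinery that mitosis shares with the rest of the cell cycle was closer to level. Of 16 genes of the anaphase-promoting complex and its partners, 10 were lower and 6 higher, with a median of -0.17. Anapc2, its cullin-like subunit, was the one at least 2-fold lower, with 2940 on the array labelled knockout and 6510 on the wild-type array (-1.08 ± 0.20), a call lost with centring on the median (-0.90). Cdc27 was at -0.80, Cdc23 at -0.53 (-0.47 and -0.09 with normexp) and Fbxo5, an inhibitor of the complex, at -0.33. Of 12 cohesin genes, 10 were lower, 9 lay inside the scanner error and the median was -0.13. Esco2, the acetyltransferase that makes cohesion in S phase, was apart from the rest of that list, with 145 on the array labelled knockout and 413 on the wild-type array (-1.44 ± 0.21), ahead of the loader Mau2 at -0.68, the release factor Wapl at 0.33 and Pds5a at -0.17 (0.02 after centring on the median). With normexp Esco2 was at -0.97 and Mau2 at -0.31. Median centring turned the list medians to 0.02 for the anaphase-promoting complex and 0.06 for cohesin.

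Genes of S phase gave values much like those of mitosis. Of 36 G1 to S phase and replication genes, 34 were lower and 2 higher on the array labelled knockout, with a median of -0.50. At least 2-fold lower were 2, where 3.63% of all genes were. Cdk2 gave 47.1 on the array labelled knockout and 123 on the wild-type array (-1.32 ± 0.22), and Gins2, of the replicative helicase, gave 32.1 and 81.8 (-1.28 ± 0.24). Orc1 (-0.93) and Tyms (-0.85) followed. With normexp these 4 genes were at -0.50, -0.36, -0.11 and -0.53.

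**Figure D4:**
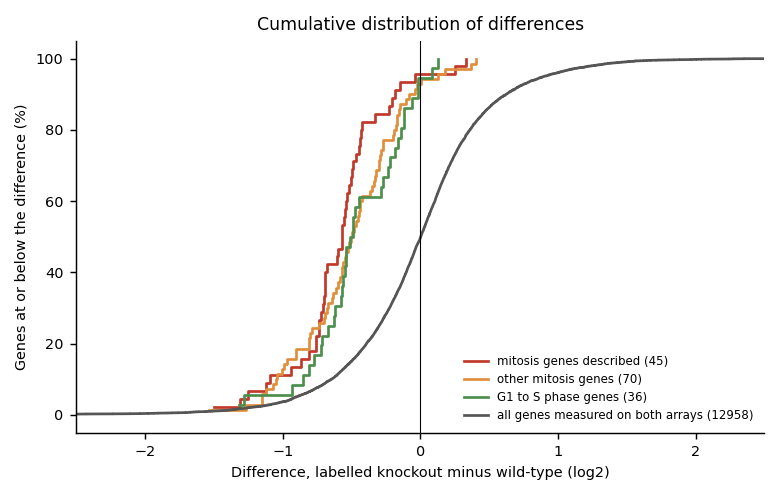
Cumulative share of genes (percent, vertical) at or below each difference (knockout minus wild-type, log2, horizontal) for the 45 mitosis genes, 70 other mitosis genes, 36 G1 to S phase genes and all 12958 genes measured on both arrays. The 3 cell cycle curves lie left of the curve of all genes and close to each other, with medians of -0.57, -0.50 and -0.50 against 0.00, and a few genes beyond the plotted range are not shown.

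Genes that act before S phase or hold the cycle back were split. Of 17 G1 cyclins and brakes measured on both arrays, 8 were lower and 9 higher on the array labelled knockout, with a median of 0.04 that turned to -0.07 with the mean over probes. Cdkn2a, which encodes the CDK inhibitor p16INK4a and the p53 activator ARF, was 3.14-fold higher, with 1070 on the array labelled knockout and 356 on the wild-type array (1.65 ± 0.21). Its neighbour Cdkn2b, which encodes p15INK4b, gave 569 and 295 on the same arrays (1.01 ± 0.21). Cdkn1a, which encodes p21, gave 64.4 on the array labelled knockout and 30.2 on the wild-type array (1.17 ± 0.32). Cdkn1a and Cdkn2b were within 2-fold with normexp, at 0.41 and 0.78. Tob1, an antiproliferative gene of quiescent T cells, was the lowest of the list at -0.63.

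Markers of other cells differed between the arrays too, and their part in the differences of the mitosis genes was not tested. Germinal centre B cells divide fast, and 7 of their 8 markers were lower on the array labelled knockout, with a median of -0.80 and a summed signal of 14755 on the array labelled knockout and 20194 on the wild-type array. Mybl1 gave 67.8 on the array labelled knockout and 311 on the wild-type array (-2.13 ± 0.21), S1pr2 297 and 593 (-0.93 ± 0.20) and Rgs13 1220 and 2430 (-0.93 ± 0.20). All 8 were well above background on both arrays, as were 12958 of all 20651 genes. The cultures were set up from sorted CD4 T cells. General B cell markers were lower in 11 of 12, with a median of -0.33, summed signals of 103147 on the array labelled knockout and 131156 on the wild-type array, and Blk (-1.41), Cd79a (-1.18) and Fcrla (-0.81) the furthest apart. With normexp Mybl1 was at -1.15, Blk at -0.47 and Cd79a at -0.69.

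Erythroid precursors also divide, and their markers gave little signal. Klf1 and Rhag were not well above background, and the 6 markers measured on both arrays summed to 936.5 on the array labelled knockout and 1216 on the wild-type array, with Alas2 at -1.15, Epor at 1.12 and Slc4a1 at -0.94. Macrophage and dendritic cell markers lay above 0 in 11 of 12, with a median of 1.13 and sums of 110042 on the array labelled knockout and 94953 on the wild-type array (42542 and 20053 without the brightest marker), led by Cd209a (1.51), Marco (1.43) and Mrc1 (1.39). CD8 and NK cell markers were higher in 9 of 10, with a median of 0.39 and sums of 35639 on the array labelled knockout and 18125 on the wild-type array (10939 and 9335 without Klra1, the brightest), led by Klra1 (1.56), Klrk1 (0.94) and Ncr1 (0.64). Mast cell and neutrophil markers were higher in 6 of 8, with a median of 0.32 and sums of 128254 on the array labelled knockout and 125332 on the wild-type array (39254 and 33332 without the brightest marker), led by Cpa3 (1.72), Fcer1a (1.49) and, on the lower side, Mcpt8 (-0.80). T cell markers were split, with 5 of 11 lower and 6 higher. Their median was 0.04 (-0.03 with normexp), and the highest was at 0.51. Their sums were 104194 on the array labelled knockout and 99832 on the wild-type array. The furthest apart, all on the lower side, were Cd3e (-1.13), Cd247 (-0.78) and Cd3g (-0.71). In the TH9 list, Pparg was at 1.49, Il17rb at 1.23 and Irf4 at -0.33, and Il9 and Spi1 were not well above background on both arrays. Sums add unscaled signals of different probes, so the brightest probes weigh most. With normexp the dim markers lay closer to 0, with Alas2 at -0.25, Epor at 0.49, Slc4a1 at -0.15, Klrk1 at 0.41, Ncr1 at 0.27, Fcer1a at 0.69, Mcpt8 at -0.23, Cd247 at -0.21, Pparg at 0.86, Il17rb at 0.61 and Irf4 at -0.22.

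**Figure D5:**
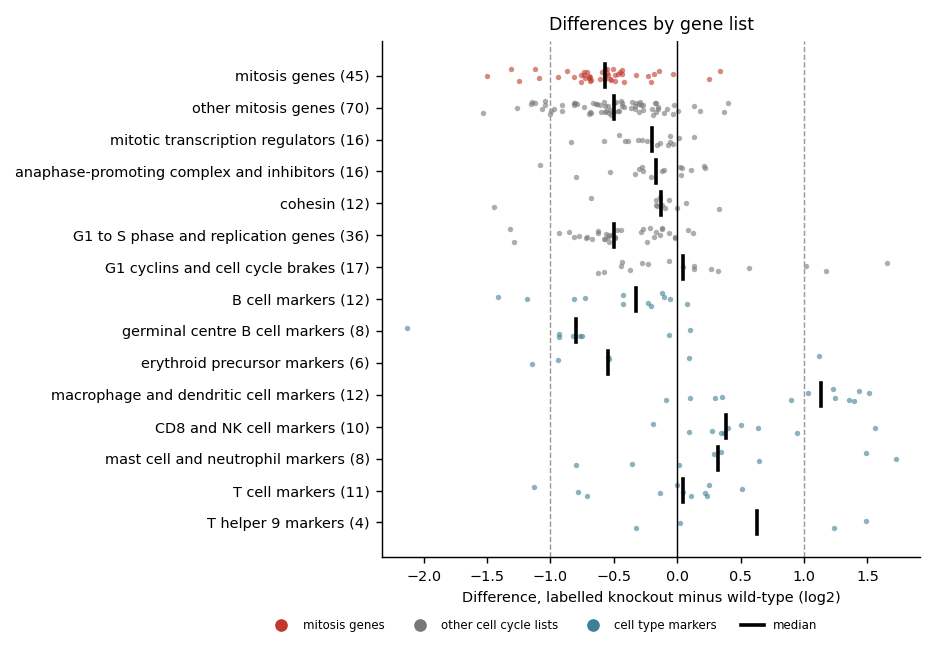
Difference of each gene (point, knockout minus wild-type, log2) well above background on both arrays, by list, with the number of genes in brackets and the list's median as a bar. The mitosis, other mitosis, G1 to S phase and germinal centre B cell lists have medians of -0.50 or lower, as does the small erythroid list at -0.54, and macrophage and dendritic cell markers have the highest median at 1.13.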

How the data were processed

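Gene expression was measured on 1 array per genotype (1-colour, Cy3). The deposited scanner files hold the processed signal, an intensity from which the scanner software subtracted background (version 11.0.1.1 of Agilent Feature Extraction, as the submitters' processing notes and the headers name it), given to few digits, with its error, the median pixel intensities and flags. Both arrays share 1 slide and 1 scan. A value table of log2 values was also deposited; its scale and normalization are not given in the sources used here, and both of its columns have a median of 5.36.

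Control spots and outlier-flagged spots were left out, spots of a probe averaged, and log2 signals set against each array's 75th percentile. Of 39411 probes, 27220 matched a gene by unversioned RefSeq accession (GRCm38.p6 table), and the other 12191 were not used here. The brightest probe stood for a gene. Genes counted had to be well above background on both arrays. The functions were tested on simulated data. With 1 array per genotype no p-value was computed. The members and lists were chosen with earlier results of these data known. All members and all 16 mitotic transcription regulators could be named, and of other lists the 4 largest differences (3 for marker lists) and every gene past 2-fold in cell cycle lists. Tools were Python 3.11.15, pandas 2.3.3, R 4.3.3 and limma 3.58.1. Alternatives were median centring, quantile and loess scaling, normexp with an offset of 50 on median intensities followed by quantile scaling, the background-subtracted signal, the deposited log2 table, the mean over probes, looser and stricter signal filters, and fold thresholds of 1.5 and 3.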

Additional observations from a re-analysis of the deposited data

How the results depend on the processing

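The members' median difference kept its sign under all 9 alternatives run, from -0.60 with the mean over probes to -0.38 with centring on the median. That centring moved the median of all genes to 0.19, and relative to it the members lay at -0.57. Of 45 members, 43 were lower with quantile, loess, normexp, the deposited table and the background-subtracted signal, where 46.5% to 48.9% of all genes were. With the mean over probes 42 were lower, where 52.6% of all genes were, and with median centring 40. With that centring Bub3 (0.15), Ncapd2 (0.04) and Smc4 (0.004) turned above 0. Mad2l1 turned to 0.03 with the mean over probes. The filter to genes at or above the 75th percentile of both arrays kept fewer genes by construction, with 25 of 26 members lower and 2 at least 2-fold lower, against 43 and 5. Of the 6221 genes it kept, 43.3% were lower and 0.997% at least 2-fold lower. With median centring 3 members were at least 2-fold lower, where 32.8% of all genes were lower and 2.25% at least 2-fold lower. With no background filter 6 of 47 members were at least 2-fold lower, a smaller share than the 20.8% of all genes, while 45 were lower, where 58.2% of all genes were. At 1.5-fold and 3-fold, 21 and 0 members passed. Of 386 single member values under the alternatives, 374 moved by less than their scanner error, 12 moved by more, and no member past 2-fold changed sign. Many of the 374 could not have moved that far. The looser and stricter signal filters left each single value unchanged by construction. The mean over probes did the same for members with only 1 probe well above background on both arrays. Median centring moved every member alike, by 0.19, less than the scanner error of any member. In the deposited log2 table no member probe well above background on both arrays departed by more than 0.5 from the scanner difference; the second probe of Nuf2, not well above background, departed by 1.21. The CHR share was 20.5% in the middle 150 bases of the window, which end before the start, and 69.2% in its last 150 bases, a window chosen after seeing the data, against 11% and 9.23% of all genes. With normexp Espl1, Ttk, Ncapg, Kif2c, Kif11 and Kif15 were at -0.22, -0.12, -0.21, -0.27, -0.50 and -0.47. Its offset of 50, added to every signal before log2, brings differences of dim genes closer to 0. How far the offset accounts for these values was not tested. No paired analysis was possible because each genotype has 1 array.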

Other observations

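Genes outside every list used here that carry the same promoter letters as the mitosis genes were close to level. The 581 genes with both a CHR match and a CCAAT match, measured on both arrays, had a median difference of -0.04, with 54.4% lower, and the 417 with E2F letters had one of -0.04, with 54% lower. Over all 640 genes with both matches, mitosis genes included, the median was -0.09, and over the 9733 without both it was 0.01.

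The second probe of Cdkn2a gave 8.29 on the array labelled knockout and 5.18 on the wild-type array, neither well above background, so its 3.14-fold difference rests on 1 probe.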
